A study of Mus musculus with 10 samples.

Results

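The nucleolar ribosome biogenesis factors are proteins that make, modify and fold ribosomal RNA and assemble it with ribosomal proteins inside the nucleolus. The set held 36 gene symbols, chosen by name from the gene count table, and all 36 were found once among its 54532 genes. Their messenger RNA was sequenced in B cells taken from mouse spleen, and 35 of the 36 had enough counts to be tested. In the fibrosis group (5 libraries) the mice had developed liver fibrosis during 4 weeks of carbon tetrachloride given into the peritoneum, which injures hepatocytes. Wildtype mice gave the control group (5 libraries). The sources used here do not give strain, age, sex, the isolation of the B cells or any treatment of the control animals, and the model is one of repeated chemical liver injury in which the sampled cells are those of the spleen. Separate animals are not named in the labels, and p-values therefore reflect the spread among these libraries alone, part of which may be technical.

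A ribosome begins with transcription of ribosomal RNA by RNA polymerase I. Small nucleolar ribonucleoproteins (snoRNPs) then guide its chemical modification, and 2 sets of assembly factors build the small and the large subunit. Lymphocytes raise this production when they are activated to grow and divide, and the transcription factor Myc is a known activator of many of the genes involved.

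Libraries held between 13439100 and 17954551 counts. Levels below are CPM, counts scaled by library size and TMM factor, and changes are log2 fold changes of fibrosis over control with their standard errors (SE). Calls rest on edgeR's quasi-likelihood test with p-values adjusted over all 14283 tested genes and a threshold of 0.05. B cell markers were abundant: the summed level of 8 such genes was 6056 to 8624 CPM in fibrosis and 5758 to 6567 CPM in control. Libraries 4 and 5 of the fibrosis group stood apart, and counts of called genes are also given without them. They held the highest summed levels of all libraries for 4 platelet genes (895 and 945 CPM, against at most 523 CPM elsewhere), and also for ribosomal protein genes.

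Ribosome biogenesis factors were lower in fibrosis as a set of modest changes. Of 35 tested members, 16 fell and 1 rose, where 17.2% of all tested genes were lower and 18.6% higher. The members called lower were thus 45.7% of those tested and the member called higher 2.86%. The median over the members was -0.27, against 0.05 over all tested genes, and 29 of 35 were below 0. None (0) differed by 2-fold or more. The falls ran from 14.7% for Ubtf to 43.0% for Bysl. In 14 of the 35 tested members (40.0%), all of them called lower, every fibrosis library lay below every control library, which was so for 14.0% of all tested genes. Among called genes the shares were closer, at 14 of 16 members (87.5%) and 1927 of 2451 of all genes called lower (78.6%). Among the 9290 genes that averaged 10 CPM or more, as every tested member did, 20.0% were lower and 19.9% higher.

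Without fibrosis libraries 4 and 5, 15 members were lower and none (0) higher, the median was -0.19, and 13 of the 16 were called lower again (18.8% of all genes were lower and 18.4% higher in that fit). It was chosen as an alternative after seeing the data. Scaling by library size only moved the median of all tested genes by -0.11. With that scaling 23 members were lower and none (0) higher, while 23.1% of all genes were lower and 12.4% higher. Relative to the median of all genes, that of the members stood at -0.31 under both scalings. A change of scaling moves all genes by nearly the same amount, so this gap cannot test the choice of scaling.

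**Figure D1:**
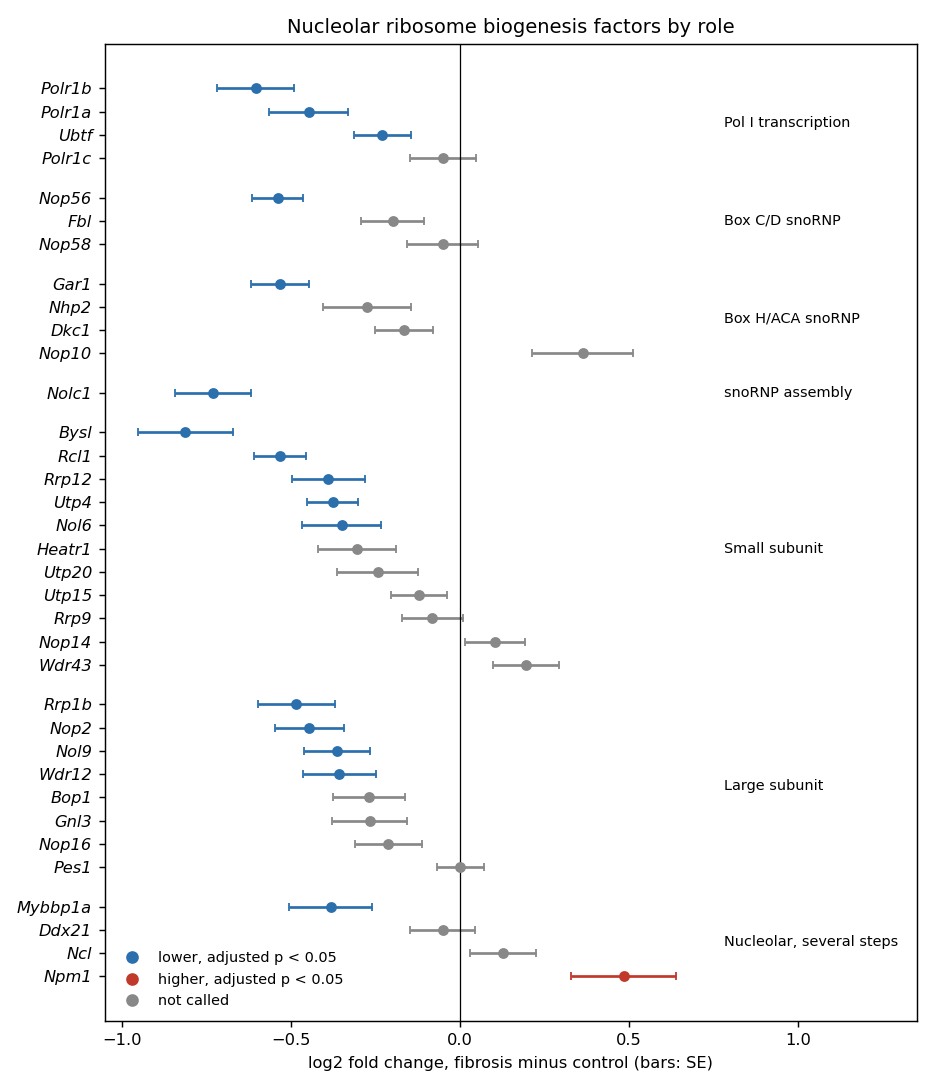
Log2 fold change of the 35 tested members (x axis, fibrosis minus control; points with SE bars), grouped by role, with colour for the call by edgeR. Blue points (16 genes) lie between -0.81 and -0.23, and the single red point is Npm1 at 0.48.

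The promoters of the members are shown for the E-box, the palindrome CACGTG bound by Myc with its partner Max, since Myc is the best known regulator of these genes. RefSeq promoters of build GRCm38.p6, from 250 bases before to 50 after the gene start, were found for 31 of 36 members. The letters CACGTG, which read the same on both strands, occurred in 6 of 31 members (19.4%), in 6 of 58 ribosomal protein genes (10.3%) and in 1179 of 10104 tested genes (11.7%). Other ribosome biogenesis factors, described below, had them in 23 of 116 (19.8%), a share close to that of the members. Of the 6 members with the motif, 3 fell (Nop2, Utp4 and Mybbp1a), and Utp20, Pes1 and Wdr43 were not called. The median was -0.31 in these 6 and -0.27 in the 24 tested members with a promoter but without the motif. A match is a description of the letters and not a measured binding site. The promoters of the 3 members that fell and of Pes1, which was at the same level in both groups, are printed from 5′ to 3′ with the motif in capitals. They lie on the plus strand at chr6:125131633-125131932 (Nop2), chr8:106893390-106893689 (Utp4), chr11:72441077-72441376 (Mybbp1a) and chr11:3963725-3964024 (Pes1).
Nop2: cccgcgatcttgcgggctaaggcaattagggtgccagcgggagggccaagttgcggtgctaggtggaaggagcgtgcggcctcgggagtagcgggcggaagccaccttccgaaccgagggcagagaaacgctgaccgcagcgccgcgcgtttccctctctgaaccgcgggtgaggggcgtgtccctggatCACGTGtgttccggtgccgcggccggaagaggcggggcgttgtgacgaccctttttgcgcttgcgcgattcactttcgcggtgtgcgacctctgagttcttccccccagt
Utp4: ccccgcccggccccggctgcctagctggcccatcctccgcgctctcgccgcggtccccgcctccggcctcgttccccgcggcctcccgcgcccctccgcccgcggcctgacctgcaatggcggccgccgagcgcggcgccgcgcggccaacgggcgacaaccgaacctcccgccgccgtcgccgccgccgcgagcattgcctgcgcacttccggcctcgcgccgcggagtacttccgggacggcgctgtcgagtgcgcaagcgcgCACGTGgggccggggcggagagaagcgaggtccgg
Mybbp1a: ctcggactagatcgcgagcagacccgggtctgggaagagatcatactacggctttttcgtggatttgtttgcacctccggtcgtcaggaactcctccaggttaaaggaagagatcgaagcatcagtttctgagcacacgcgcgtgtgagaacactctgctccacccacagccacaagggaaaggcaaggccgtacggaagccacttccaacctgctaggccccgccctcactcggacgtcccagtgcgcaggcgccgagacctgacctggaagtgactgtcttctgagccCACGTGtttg
Pes1: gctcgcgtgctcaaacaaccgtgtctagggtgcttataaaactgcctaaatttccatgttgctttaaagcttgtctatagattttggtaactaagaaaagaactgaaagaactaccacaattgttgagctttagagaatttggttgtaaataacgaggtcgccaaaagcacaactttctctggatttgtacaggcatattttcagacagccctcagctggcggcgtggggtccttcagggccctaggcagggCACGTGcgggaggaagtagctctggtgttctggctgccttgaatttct
The motif of Nop2 begins 60 bases before the start, and that of Utp4, Mybbp1a and Pes1 begins at base 16, 41 and 3 after it.

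Transcription of ribosomal RNA was represented by 4 genes, of which 3 fell (2 without fibrosis 4 and 5). Polr1b, which encodes a core catalytic subunit of RNA polymerase I (chromosome 2, 129100995 to 129126594), was at 58.2, 50.9, 42.2, 36.6 and 41.4 CPM in fibrosis 1 to 5 and at 72.7, 71.2, 68.9, 67.0 and 68.9 CPM in control 1 to 5. All fibrosis libraries lay below all controls, with the lowest level in fibrosis 4. The change was -0.60 ± 0.11 (adjusted p = 0.00126 by edgeR). Polr1a, the largest catalytic subunit gene (chromosome 6, 71909053 to 71984935), averaged 104 ± 9.46 CPM in control and 76.0 ± 12.9 CPM in fibrosis (SD, n = 5 each). Its change was -0.45 ± 0.12 (adjusted p = 0.00941 by edgeR; -0.28 without fibrosis 4 and 5), and fibrosis 1 at 89.9 CPM overlapped control 4 at 89.2 CPM. Ubtf, the factor that opens ribosomal gene promoters for the polymerase, was at -0.23 ± 0.08, close to the threshold (adjusted p = 0.0472 by edgeR). Ubtf was not called without fibrosis 4 and 5 (-0.15, adjusted p = 0.124), without any single library other than fibrosis 1 (adjusted p from 0.0548 to 0.104), or with an offset for GC content and length (-0.06, adjusted p = 0.526). Over all alternatives its adjusted p ranged from 0.00909 to 0.526. Polr1c, a subunit shared with RNA polymerase III, was at -0.05 ± 0.10 (adjusted p = 0.725 by edgeR), and its groups overlapped.

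The box C/D snoRNP places ribose methyl groups on ribosomal RNA, with fibrillarin (Fbl) as the methyltransferase and Nop56 and Nop58 as its scaffold. Nop56 (chromosome 2, 130274430 to 130279313) was at 122, 128, 123, 124 and 109 CPM in fibrosis 1 to 5 and at 178, 173, 173, 169 and 188 CPM in control 1 to 5. The groups did not overlap, and the libraries of each group lay close together, including fibrosis 4 and 5. The change was -0.54 ± 0.08 (adjusted p = 0.000164 by edgeR), the smallest adjusted p among the members, and -0.49 without fibrosis 4 and 5. Its partners Fbl (-0.20 ± 0.09, adjusted p = 0.109 by edgeR) and Nop58 (-0.05 ± 0.11, adjusted p = 0.742) were not called. Nop58 changed sign without fibrosis 1 (0.02) and was called lower with the offset for GC content and length (-0.22, adjusted p = 0.0102 by edgeR; 0.0102 to 0.974 over all alternatives).

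The box H/ACA snoRNP converts uridines of ribosomal RNA to pseudouridine, with dyskerin (Dkc1) as the enzyme and Gar1, Nhp2 and Nop10 as the other core proteins. Of these 4, Gar1 fell, and without fibrosis 4 and 5 Gar1 and Nhp2 were called lower. Its level (chromosome 3, 129824912 to 129831396) was 36.7, 35.2, 32.4, 33.7 and 29.5 CPM in fibrosis 1 to 5 against 49.0, 50.1, 44.6, 46.3 and 52.3 CPM in control 1 to 5, without overlap. The change was -0.53 ± 0.09 (adjusted p = 0.000428 by edgeR). Dkc1 was at -0.17 ± 0.09 (adjusted p = 0.148), and was called lower with library size only and with the offset for GC content and length (-0.27 and -0.23). Nop10 was at 73.9, 67.4, 69.0, 112 and 106 CPM in fibrosis 1 to 5 and at 57.7 to 71.9 CPM in control. Its value of 0.36 ± 0.15 (adjusted p = 0.0742 by edgeR) thus rested on fibrosis 4 and 5, and it was 0.08 without them (adjusted p = 0.519). Nhp2 had its highest fibrosis levels in the same libraries (125 and 107 CPM, against 78.0 to 91.9 CPM in fibrosis 1 to 3). It was at -0.28 ± 0.13 (adjusted p = 0.116 by edgeR) in all libraries and at -0.47 without those 2 (adjusted p = 0.00310; 0.00310 to 0.226 over all alternatives).

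Nolc1, a nucleolar phosphoprotein that chaperones snoRNPs of both classes, fell by the most after Bysl. On chromosome 19 (46075863 to 46085530), it was at 105, 104, 90.3, 77.6 and 72.4 CPM in fibrosis 1 to 5 and at 151, 146, 138, 142 and 167 CPM in control 1 to 5. Every fibrosis library was below every control, and fibrosis 4 and 5 were the lowest. The change was -0.73 ± 0.11 (adjusted p = 0.000311 by edgeR), and -0.57 without fibrosis 4 and 5.

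Among 11 factors of the small subunit, 5 fell and none (0) rose, with a median of -0.31. Leaving out fibrosis 4 and 5, 4 were lower and the median was -0.14. Bysl, which accompanies the small subunit precursor through late maturation (chromosome 17, 47599331 to 47611492), was at 49.3, 42.3, 34.5, 31.2 and 29.7 CPM in fibrosis 1 to 5 and at 70.0, 75.1, 54.3, 63.9 and 65.4 CPM in control 1 to 5. The groups did not overlap, and the change of -0.81 ± 0.14 (adjusted p = 0.000697 by edgeR) was the largest among the members. Bysl shares 361 of its 3854 exonic bases (9.37%) with Ccnd3, the cyclin D3 gene on the opposite strand, which fell by 0.95 ± 0.13 (adjusted p = 0.000129 by edgeR) and had 72489 counts against 8797 for Bysl. The labels do not say whether counting used strand, and reads from the shared bases cannot be told apart.

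Rcl1, a protein of ribosomal RNA cleavage (chromosome 19, 29101375 to 29143843), was at 40.3, 38.2, 36.7, 37.0 and 32.8 CPM in fibrosis 1 to 5 and at 54.0, 54.1, 52.9, 54.8 and 51.8 CPM in control 1 to 5. These groups were far apart relative to their spread, and the change was -0.53 ± 0.08 (adjusted p = 0.000210 by edgeR). Utp4, a component of the complex that first binds the nascent transcript (chromosome 8, 106893636 to 106923088), averaged 49.2 ± 2.06 CPM in control and 37.9 ± 2.26 CPM in fibrosis, a fall (-0.38 ± 0.08, adjusted p = 0.00191 by edgeR). Rrp12, which acts in export of the subunit precursors, fell by 0.39 ± 0.11 (adjusted p = 0.0125). The value of Rrp12 was -0.23 without fibrosis 4 and 5 and -0.24 with the offset for GC content and length, and it kept its call in both. Nol6, a component of the small subunit processome, was at -0.35 ± 0.12 (adjusted p = 0.0323 by edgeR). The level of Nol6 in fibrosis 1 to 5 was 126, 117, 99.7, 80.7 and 84.8 CPM, against 126 to 135 CPM in control, and without fibrosis 4 and 5 it was at -0.17 (adjusted p = 0.123). The call was likewise absent on leaving out fibrosis 3, 4 or 5 or any 1 control (-0.36 to -0.28, with adjusted p of 0.0505 to 0.0747). Across alternatives its adjusted p ran from 0.00702 to 0.123 by edgeR or the other tools.

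The other 6 small subunit factors were not called. The large scaffold protein gene Heatr1 came closest (-0.31 ± 0.11, adjusted p = 0.0532 by edgeR), and it was called lower in 7 of 22 alternatives but not without fibrosis 4 and 5 (-0.14). Its neighbours in the transcript-binding complex, Utp15 and Wdr43, were at -0.12 ± 0.08 and 0.20 ± 0.10, and Utp20, Rrp9 and Nop14 at -0.24 ± 0.12, -0.08 ± 0.09 and 0.10 ± 0.09. Nop14 was at -0.0031 with library size only. Wdr43 and Nop14 thus stood above 0 with TMM scaling, while the other members of the subunit group stood below it.

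Among 8 tested factors of the large subunit, 4 fell and none (0) rose, with a median of -0.31 (5 lower and a median of -0.27 without fibrosis 4 and 5). Rrp1b, a nucleolar protein of large subunit processing (chromosome 17, 32036100 to 32062865), was at 31.6, 34.8, 32.3, 22.9 and 25.3 CPM in fibrosis 1 to 5 against 42.9, 41.2, 39.8, 42.9 and 38.9 CPM in control 1 to 5. The groups did not overlap, with the lowest levels in fibrosis 4 and 5 (-0.48 ± 0.11, adjusted p = 0.00483 by edgeR), and without those libraries the change was -0.31. Nop2, a methyltransferase of ribosomal RNA whose promoter is printed above, fell from 100.5 ± 5.91 to 73.8 ± 10.9 CPM (-0.45 ± 0.10, adjusted p = 0.00423). Nol9, a polynucleotide kinase of ribosomal RNA processing, fell by 0.36 ± 0.10 (adjusted p = 0.0108 by edgeR) and was at -0.22 without fibrosis 4 and 5, where it was called, and at -0.20 with an offset for GC content and length (adjusted p = 0.0682; 0.00350 to 0.0682 over all alternatives).

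Pes1, Bop1 and Wdr12 form one complex, called PeBoW, of which Wdr12 fell. Pes1 was at 152, 141, 137, 146 and 141 CPM in fibrosis 1 to 5 and at 149, 143, 139.9, 144 and 141 CPM in control 1 to 5, a change of 0.00 ± 0.07 (adjusted p = 0.994 by edgeR). Wdr12 was at 25.9, 25.4, 29.6, 37.4 and 31.8 CPM in fibrosis 1 to 5, where fibrosis 4 overlapped the controls (36.6 to 41.5 CPM). Its change was -0.36 ± 0.11 (adjusted p = 0.0208 by edgeR), -0.50 without fibrosis 4 and 5, -0.55 with the offset for GC content and length, and -0.33 without control 1, where it lost its call (adjusted p = 0.0556; 0.000982 to 0.0556 over all alternatives). Bop1 ran from 131 CPM in fibrosis 1 to 86.1 CPM in fibrosis 5, at -0.27 ± 0.11 (adjusted p = 0.0657). The nucleostemin gene Gnl3 (-0.27 ± 0.11) and Nop16 (-0.21 ± 0.10) were not called either. Gnl3 was called lower in 6 of 22 alternatives, among them the fit without fibrosis 4 and 5 (-0.34, adjusted p = 0.0436 by edgeR; 0.0220 to 0.140 over all alternatives). Wdr74 had 8 counts over all libraries and was too low to test, so a difference could not be assessed. Why its counts were so low was not tested. The table also lists Gm45736, a protein-coding gene with 1 count, over the same stretch and strand as Wdr74.

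Of 4 nucleolar proteins that act at several steps, 1 fell and 1 rose, with a median of 0.04, and none (0) was called without fibrosis 4 and 5. Nucleolin (Ncl), which binds ribosomal RNA precursors and was the member with the most counts, was at 347, 419, 472, 429 and 381 CPM in fibrosis 1 to 5 and at 388, 369, 415, 349 and 354 CPM in control 1 to 5 (0.13 ± 0.10, adjusted p = 0.338 by edgeR). The groups overlapped. Nucleophosmin (Npm1, chromosome 11, 33152287 to 33163206), a chaperone of ribosomal proteins and histones, was at 283, 307, 346, 520.3 and 470.1 CPM in fibrosis 1 to 5 and at 284, 254, 293, 262 and 285 CPM in control 1 to 5. Its change of 0.48 ± 0.15 passed (adjusted p = 0.0263 by edgeR), but fibrosis 1 lay within the control range. Without fibrosis 4 and 5 it was at 0.19 (adjusted p = 0.0971; 0.00562 to 0.0971 over all alternatives). Its call also ended on leaving out any of fibrosis 4, fibrosis 5 and control 1, 2, 4 and 5 (0.35 to 0.49, with adjusted p of 0.0502 to 0.0660), as did library size only (0.37, adjusted p = 0.0685).

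Mybbp1a, a nucleolar protein that binds Myb and acts in ribosomal RNA processing, was at 366, 355, 314, 239.6 and 243 CPM in fibrosis 1 to 5 and at 406, 407, 384, 385 and 397 CPM in control 1 to 5. All fibrosis libraries were below all controls, and fibrosis 4 and 5 were far below the others. Its change was -0.38 ± 0.12 (adjusted p = 0.0268 by edgeR), and -0.19 without fibrosis 4 and 5 (adjusted p = 0.0611). On leaving out any of fibrosis 4, fibrosis 5 and control 1, 2 and 5 it was not called either (-0.38 to -0.31, with adjusted p of 0.0501 to 0.0592), nor with the offset for GC content and length (-0.22, adjusted p = 0.0992; 0.00504 to 0.0992 over all alternatives). The RNA helicase gene Ddx21 was not called (-0.05 ± 0.10). Without fibrosis 4 and 5 it was at 0.06, a change of sign.

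**Figure D2:**
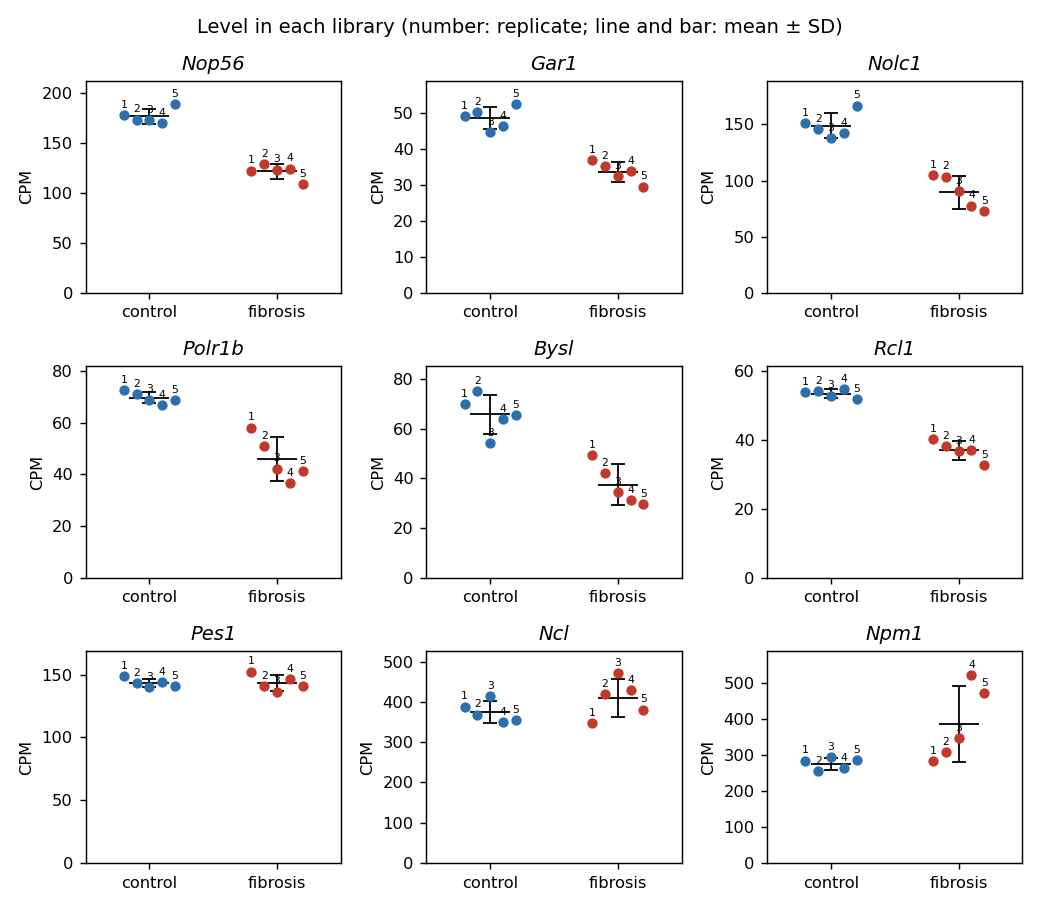
CPM of 9 members in each library (y axis from 0), with the replicate number above each point and mean ± SD as line and bar. Nop56, Gar1, Nolc1, Polr1b, Bysl and Rcl1 are separated between groups, Pes1 and Ncl overlap, and Npm1 is high in fibrosis 4 and 5 (520.3 and 470.1 CPM).

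The members differed in how they varied. Their median coefficient of variation was 6.33% in control and 14.4% in fibrosis, against 8.34% and 15.2% over the 9290 genes of at least 10 CPM. Fibrosis 4 or 5 was the lowest fibrosis library for 19 of 35 members, and fibrosis 4 the highest for 6 (Polr1c, Fbl, Nhp2, Nop10, Wdr12 and Npm1). Fibrosis 5 was the highest for none (0). The libraries that were lowest for most members were thus the ones in which Nop10 and Npm1 were high.

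Levels per gene length (FPKM, from the authors' deposited table) placed partners of one complex far apart. In control, Fbl was at 47.4 ± 3.67 and Nop56 at 42.9 ± 1.96 FPKM, while Nop58 was at 5.31 ± 0.424 FPKM (SD, n = 5). In the H/ACA complex, Nhp2 (102 ± 11.5 FPKM) stood above Nop10 (60.0 ± 6.20), Gar1 (28.2 ± 1.94) and Dkc1 (12.8 ± 1.07). Pes1 and Bop1 were at 47.4 ± 1.40 and 42.6 ± 1.5 FPKM and Wdr12 at 3.21 ± 0.185 FPKM. How the listed gene lengths were defined is not stated in the labels, and levels on this scale depend on them. In the annotation, Wdr12 has 11955 exonic bases and Bop1 2957, and in CPM their control means were closer, at 38.4 and 126. Dkc1 has 4121 and Nhp2 1146, with closer control means of 53.0 and 117 CPM. Distances between partners in FPKM therefore cannot be read as distances in transcript number.

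Ratios of length-scaled counts within a library do not depend on scaling between libraries. Of 11 such ratios between partners, chosen after the members' values were seen and given without a test, the groups were apart in 1. Pes1 over Bop1 was 1.14 to 1.6 in fibrosis and 1.08 to 1.13 in control. Nop56 over Fbl was 0.721 ± 0.0796 in fibrosis and 0.910 ± 0.0831 in control, with overlap. Npm1 over Ncl was 3.12, 2.80, 2.80, 4.64 and 4.72 in fibrosis 1 to 5 and 2.63 to 3.07 in control, so that the higher ratio lay in fibrosis 4 and 5.

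Ribosomal protein genes, whose products these factors assemble, went the other way. Of 79 genes, 66 rose (83.5%) and 1 fell, with a median of 0.63. Rps27 rose by 1.39 ± 0.18 and Rpl30 by 1.13 ± 0.18 (adjusted p = 0.000103 and 0.000421 by edgeR). The gene that fell was Rps10 (-1.18 ± 0.15, adjusted p = 8.05e-05 by edgeR). Rps10 had 1814 counts in all, and 20.6% of its exonic bases are shared with the read-through gene RPS10-NUDT3 of the annotation, so its level is uncertain. Without fibrosis 4 and 5, 60 ribosomal protein genes were higher and 2 lower, and the median was 0.39. With library size only, 59 were higher and 1 lower.

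Percent of all counts is a scaling by library size only. On it the 36 members took 0.353, 0.353, 0.370, 0.343 and 0.320% in fibrosis 1 to 5 and 0.407 to 0.427% in control. The ribosomal protein genes took 11.4, 10.8, 10.5, 15.0 and 14.5% in fibrosis 1 to 5 and 8.33 to 9.49% in control. Both measures separated the groups without overlap, in opposite directions. The shares depend on each other, since a larger share of some genes leaves less for all others. Counts of ribosomal protein genes were 28.5 to 45.2 times those of the members in fibrosis and 19.5 to 23.3 times in control. The opposite directions were also present in fibrosis 1 to 3, whose shares of both sets lay outside the control ranges. Their ratio was 32.4, 30.6 and 28.5, which alone does not give the direction of either set.

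**Figure D3:**
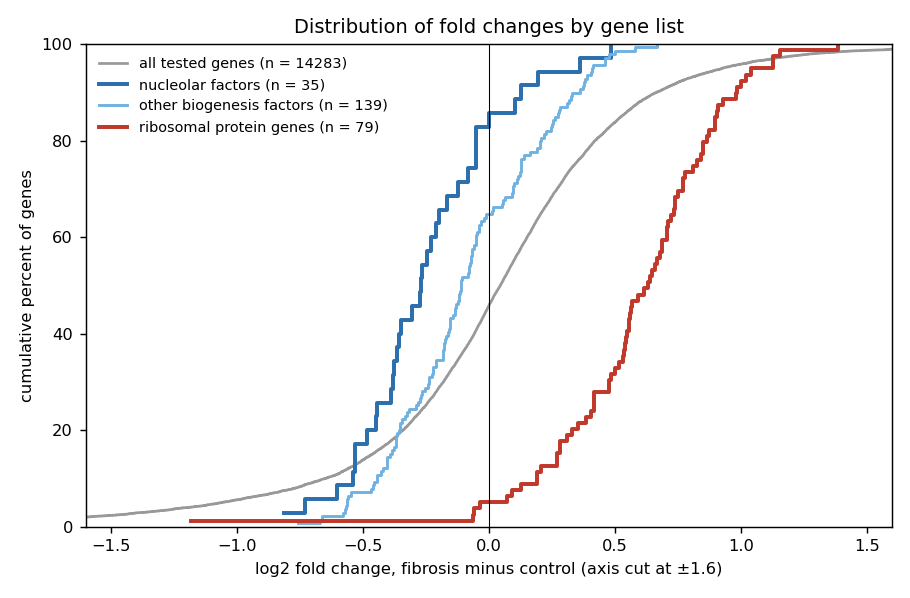
Cumulative percent of genes (y axis) against log2 fold change (x axis) for all tested genes, the 35 tested members, 139 other biogenesis factors and 79 ribosomal protein genes. The curve of the members lies left of that of all genes at its middle (medians of -0.27 and 0.05), and that of the ribosomal protein genes lies right of it (0.63).

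Other genes of ribosome production were taken from lists of 147 symbols that hold no member, of which 139 were tested. Of these, 36 fell (25.9%) and 16 rose (11.5%), with a median of -0.11. The summed level of the genes in the table was 7371 to 8073 CPM in fibrosis and 8084 to 8333 CPM in control. The genes with the smallest p among assembly factors all fell. They were Mrto4, a large subunit factor (-0.66 ± 0.10, adjusted p = 0.000234 by edgeR), Rrs1 (-0.57 ± 0.09), Noc4l (-0.67 ± 0.11) and Ppan (-0.56 ± 0.09). Without fibrosis 4 and 5, 35 were lower and 10 higher, and with library size only 56 were lower and 5 higher.

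Of 12 further genes of RNA polymerase I transcription, 3 fell and 3 rose (2 and 2 without fibrosis 4 and 5). These were 25.0% in each direction, where 17.2% of all tested genes were lower and 18.6% higher. The initiation factor gene Rrn3 was at -0.40 ± 0.09 (adjusted p = 0.00507 by edgeR) and the promoter factor gene Taf1c at -0.40 ± 0.11 (adjusted p = 0.0121, and 0.0509 without fibrosis 4 and 5). The subunit genes Cd3eap and Znrd1 moved in opposite directions, at -0.56 ± 0.11 and 0.58 ± 0.13 (adjusted p = 0.00131 and 0.00300). The RNA exosome, which trims ribosomal RNA precursors, had 4 of 13 tested genes lower and none (0) higher, counts that were the same without fibrosis 4 and 5. They were Exosc2 (-0.38 ± 0.08), Exosc7 (-0.45 ± 0.11), the nuclease gene Dis3 (-0.41 ± 0.10) and Exosc10 (-0.27 ± 0.10, adjusted p = 0.0440 by edgeR, and 0.165 without fibrosis 4 and 5).

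Of the Myc network, 2 of 10 tested genes rose and 1 fell, and 4 were higher and 2 lower without fibrosis 4 and 5. Myc was at 99.7 ± 23.4 CPM in fibrosis and 114 ± 4.72 CPM in control (-0.19 ± 0.13, adjusted p = 0.275 by edgeR), and its value was -0.0092 without fibrosis 4 and 5. It was called lower without fibrosis 2 (-0.32, adjusted p = 0.0399; 0.0399 to 0.954 over all alternatives). Mycl, a Myc paralog at a lower level, rose from 22.8 ± 1.91 to 47.8 ± 8.24 CPM (1.07 ± 0.12, adjusted p = 4.88e-05 by edgeR). Mycn had 15 counts over the fibrosis libraries and 36 over the controls and was not tested. Among the Max-binding repressors, Mxd4 rose (0.31 ± 0.09, adjusted p = 0.0156) and Mxd3 fell (-0.78 ± 0.12, adjusted p = 0.000405). Mxd1 (0.43 ± 0.18), Mxi1 (-0.24 ± 0.12), Mnt (0.0049 ± 0.12), Mga (0.37 ± 0.15) and Max (0.10 ± 0.09) were not called. Of these, Mxi1 (-0.41, adjusted p = 0.00421), Mnt (0.21, adjusted p = 0.0272) and Mga (0.50, adjusted p = 0.0313) were called by edgeR without fibrosis 4 and 5.

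Several other gene lists held called genes, and their part in the changes of the members was not tested. Over all tested genes, 17.2% were lower and 18.6% higher. All 11 S phase genes and all 8 genes of G2 and M phase fell, with summed levels of 1103 to 1714 and 404 to 618 CPM in fibrosis against 3151 to 4156 and 1019 to 1309 CPM in control. Their lowest levels were in fibrosis 5, as was that of the members (a mean of -0.35 relative to control, against -0.29 to -0.19 in fibrosis 1 to 4). The other fibrosis libraries did not keep the same order. Fibrosis 4 had the highest S phase and G2 and M phase means of the group (-1.04 and -0.95), with the members at -0.29. In fibrosis 2 those means were -1.38 and -1.49, with the members at -0.19. Among 8 erythroid genes, 4 were lower (755 to 6687 CPM in fibrosis, 2818 to 4906 CPM in control), and the sum in fibrosis 4 was above every control. All 8 erythroid genes were lower without fibrosis 4 and 5. All 4 platelet genes were higher (204 to 945 against 115 to 147 CPM). Higher calls were also made in 3 of 5 dendritic cell genes (146 to 180.1 against 79.5 to 83.2 CPM), 1 of 6 T cell genes (27.7 to 83.3 against 31.4 to 44.6 CPM) and 2 of 4 NK cell genes (46.3 to 100.1 against 45.4 to 82.0 CPM). For T cell genes that was 16.7%, under the share of all tested genes. Neutrophil genes (0 of 4) and macrophage genes (0 of 5) were not called, and their sums ran from 188 to 3852 and from 606 to 2085 CPM in fibrosis, against 254 to 789 and 911 to 1589 CPM in control. Their highest sums were in fibrosis 4 and 5 (2920 and 3852 CPM of neutrophil genes, 1883 and 2085 CPM of macrophage genes). Without those libraries all 5 macrophage genes were called lower, with a median of -0.88, and none (0) of the neutrophil genes was called. Of 8 B cell and 6 plasma cell genes, 3 (37.5%) and 1 (16.7%) were higher. The plasma cell share was also under that of all tested genes. The plasma cell genes summed to 622 to 852 CPM in fibrosis and 585 to 741 CPM in control. All 8 B cell genes were higher without fibrosis 4 and 5 (median of 0.46, against 0.28 in all libraries), and with library size only 1 was. The fit without fibrosis 4 and 5 also called 1 of the 4 NK cell genes higher and 1 lower. None (0) of these markers was at 0 counts in a whole group. In bulk samples, fewer cells of a type and less RNA per cell cannot be told apart.

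**Figure D4:**
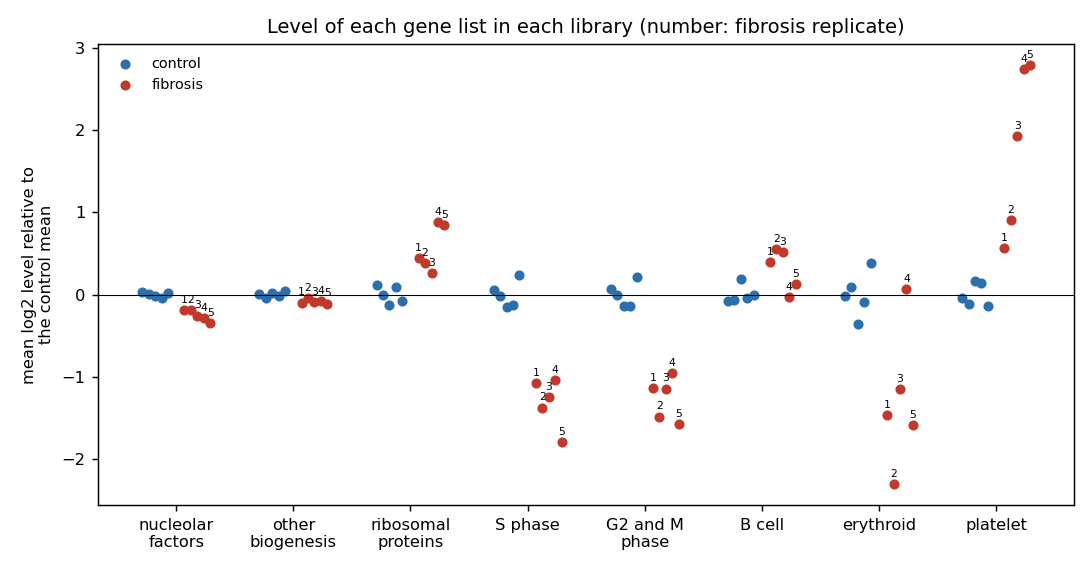
Mean log2 level of each gene list relative to the control mean (y axis), with one point per library and the replicate number over fibrosis points. The members lie below 0 in all 5 fibrosis libraries (-0.35 to -0.19) and the ribosomal protein genes above 0 (0.26 to 0.88), with fibrosis 4 and 5 the highest, as for the platelet genes.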

How the data were processed

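RNA sequencing measured splenic B cells in 5 fibrosis and 5 control libraries, as the labels' disease state groups them. The authors deposited whole-number read counts per gene and FPKM values, which divide counts by gene length and library size. Per the submitters' processing notes the build is GRCm38 (mm10). Aligner, counter and strandedness: not given in the sources used here. From the values, FPKM equals count over listed length and library total, times a factor per library from 0.935 to 1.07. All columns of sample values were used.

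The filterByExpr step of edgeR 4.0.16 (R 4.3.3) left 14283 genes, which hold 99.9% of counts. After TMM scaling, groups were compared by the quasi-likelihood test with robust dispersion, no covariate and Benjamini-Hochberg adjustment. The SE is the absolute log2 fold change over the square root of F. The code was tested on simulated data. It called 49 of 99 genes changed 1.5-fold, 94 of 97 changed 3-fold and 4 of 13928 left unchanged. A gene that was not called may therefore still differ by a modest amount. List levels are means of log2(CPM + 0.5) relative to the control mean.

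All 36 members are named, with Myc network genes and up to 4 genes of smallest p from each other list. One gene that this rule names is not reported here. The members and lists were chosen with earlier results of these data known, and so were fits without fibrosis 4 and 5 and with an offset for GC content and length (GENCODE vM21 transcripts, 99.9% of genes matched), added after the data were seen. Other alternatives were scaling by RLE, by library size only or by TMM computed with immunoglobulin and haemoglobin genes left out, 2 other count filters, DESeq2 1.42.0, limma 3.58.1 (voom, and log2 of FPKM plus 1 or 0.1), a replicate block and leaving out each library.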

Additional observations from a re-analysis of the deposited data

Results flagged for a closer look

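Of 76 sets of 5 libraries checked (35 tested members and 3 gene lists, in each group), 2 had a library far from the other 4 by Dixon's criterion, where chance gives about 1 in 20. Control 4 held 48.3 CPM of Utp20, against 58.4 to 60.6 CPM in the other controls. It also held 175 CPM of Ddx21, against 202 to 212 CPM. Neither gene was called, and leaving out control 4 did not change that.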

How the results depend on the processing

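Of the 17 called members, 11 kept their direction and call in all 22 alternatives, and 10 of 18 uncalled members were called in at least 1 (Nop10 higher, and Bop1, Dkc1, Fbl, Gnl3, Heatr1, Nhp2, Nop16, Nop58 and Utp20 lower). Leaving out each library in turn gave 12 to 17 members lower, 0 to 2 higher and medians of -0.32 to -0.25. It gave 27 to 41 other biogenesis factors lower and 8 to 24 higher, 60 to 68 ribosomal protein genes higher and 1 lower in each, with medians of 0.53 to 0.66. Of all genes, 2083 to 2582 were then lower and 2052 to 2914 higher. With library size only, 0 members were higher and the median was -0.38, with 56 other factors lower and 5 higher; higher genes made up 35.0% of all calls, against 52.0% with TMM. Without a filter the members' median was -0.33 and 8 other factors were higher. Without fibrosis 4 and 5, 0 members were higher, the members' median was -0.19, 10 other factors were higher, 2 ribosomal protein genes were lower and their median was 0.39. The offset for GC content and length gave 15 members lower and 1 higher, with a median of -0.22. In that fit 12 of the 16 were called lower again, and 2437 of all genes were lower and 3131 higher. Of ribosomal protein genes, 69 were then higher and 1 lower, with a median of 0.63.

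Signs changed in 7 genes near 0, none of them called under a setting that changed its sign. With the GC and length offset Polr1c was at 0.022 and Ddx21 at 0.00036, and without fibrosis 4 and 5 Ddx21 was at 0.060. With library size only Nop14 was at -0.0031, Max at -0.0092, Pes1 at -0.11 and Mnt at -0.096. Pes1 was at -0.012 with RLE, -0.051 without a filter, -0.012 with DESeq2, -0.011 with voom, and -0.019 and -0.020 with FPKM plus 1 and plus 0.1. Mnt was at -0.0037, -0.044 and -0.0037 with RLE, no filter and DESeq2, and at -0.037 and -0.040 with FPKM. Leaving out each library in turn gave -0.024 to 0.012 for Pes1, -0.067 to 0.090 for Mnt and -0.14 to 0.018 for Nop58. The causes were not tested.

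To look for shared batches, each gene's group mean was subtracted from its log2 CPM, and the remaining deviations were correlated between libraries. This correlation of deviations in same-numbered libraries was 0.109, -0.127, 0.419, 0.254 and -0.248 for numbers 1 to 5. It was over 0.1 in 3 of 5 pairs, in which the fibrosis library also correlated best with the control of its own number. The labels tie the numbers to no batch, and whether same-numbered libraries share one cannot be told. The main fit therefore held no pairing, and the replicate block is given as an alternative. With the replicate block 19 members were lower (Heatr1, Utp20, Bop1 and Gnl3 gained, Ubtf lost) and 1 higher, and Mnt was at -0.019. Of all 14283 tested genes, 2534 were lower and 2677 higher in that fit.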
